A study of Mus musculus with 16 samples.

Results

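The genes described are 10 S100 and mature neutrophil marker genes. The calcium-binding S100 genes are S100a8, S100a9, S100a6 and S100a11. Ly6g and Mmp25 encode surface proteins, Retnlg and Wfdc21 secreted proteins, Stfa2l1 a protease inhibitor and Il1r2 a decoy receptor. They were taken by name from a list. That list, the other gene lists and the tests were chosen with earlier results of these data known. All 10 were found among the 49585 gene identifiers of the deposited count tables, and all 10 passed the filter on low counts. The data are RNA sequencing read counts of 16 libraries, 4 in each of 4 groups, made from cells labelled as flow-sorted neutrophils from the bones of C57BL/6 mice aged 8 to 12 weeks. P2KO libraries came from Vav:cre-PHD2f/f mice, in which the recombinase Cre is driven by the Vav promoter, active in blood-forming cells, and the oxygen sensor PHD2 (gene Egln1) is targeted. P2H2KO libraries came from Vav:cre-PHD2/HIF2ff/ff mice, in which the transcription factor HIF2α (gene Epas1) is targeted as well. P2WT and P2H2WT are the wild-type controls of each line, and the labels name no Cre for them. The library titles end in m or f, which is not balanced between the groups compared. P2KO had 3 m and 1 f against 2 m and 2 f in P2WT. P2H2KO had 2 m and 2 f against 3 m and 1 f in P2H2WT. Since Vav is active in all blood cells, the targeted genes are not altered in neutrophils alone.

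S100A8 and S100A9 proteins bind calcium and pair with each other to form calprotectin, which makes up a large part of the neutrophil cytosol and binds zinc and manganese when released. Their genes are switched on during the later marrow stages of neutrophil formation, as cells stop dividing and fill their secondary granules. Ly6g, Retnlg, Mmp25, Stfa2l1 and Il1r2 are used as markers of the late and mature stages in the mouse. PHD2 marks the α subunits of hypoxia-inducible factors for degradation. The comparisons asked whether the genes described change when PHD2 is missing, alone or with HIF2α.

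S100a8 (chromosome 3, 90668978 to 90670035, plus strand) and S100a9 (90692632 to 90695721, minus strand) lie 22596 bases apart in opposite orientation on GRCm38, the assembly also called mm10, in GENCODE M21 coordinates. S100a6 (90612882 to 90624181) lies in the same cluster, which spans 82840 bases from S100a6 to S100a9, and S100a11 (93520488 to 93526287) lies further along the chromosome. Ly6g is on chromosome 15 (75155240 to 75159126), Retnlg on chromosome 16 (48872621 to 48874496), and Stfa2l1 on the same chromosome (36156811 to 36161953). Mmp25 is on chromosome 17 (23628311 to 23645277, minus strand), Wfdc21 on chromosome 11 (83746940 to 83752642) and Il1r2 on chromosome 1 (40074079 to 40125231). All 10 are annotated as protein-coding, and exons of none overlap those of another gene. A RefSeq start on GRCm38.p6 was found for 9 of the 10, all but Wfdc21.

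The 250 bases before the RefSeq start are shown for S100a8 and S100a9, the neighbours that moved together most closely over the libraries, for Ly6g, the gene of the surface antigen by which mouse neutrophils are usually sorted, and for Il1r2, which moved least like the rest. They are S100a8 chr3:90668821-90669070 (plus strand), S100a9 chr3:90695722-90695971 (minus strand), Ly6g chr15:75155011-75155260 (plus strand) and Il1r2 chr1:40085843-40086092 (plus strand), each written 5′ to 3′ along the gene, with matches to 4 searched motifs in capitals. The Il1r2 window lies inside the GENCODE gene, which has an earlier start. The S100a8 and Ly6g windows run past the GENCODE starts at 90668978 and 75155240, so their last bases lie inside the annotated genes. The later of the capital stretches of S100a8 is among these bases.
S100a8: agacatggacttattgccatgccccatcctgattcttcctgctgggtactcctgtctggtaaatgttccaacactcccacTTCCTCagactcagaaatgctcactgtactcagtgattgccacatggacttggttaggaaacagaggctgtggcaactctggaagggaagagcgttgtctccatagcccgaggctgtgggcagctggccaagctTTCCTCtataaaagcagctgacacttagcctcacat
S100a9: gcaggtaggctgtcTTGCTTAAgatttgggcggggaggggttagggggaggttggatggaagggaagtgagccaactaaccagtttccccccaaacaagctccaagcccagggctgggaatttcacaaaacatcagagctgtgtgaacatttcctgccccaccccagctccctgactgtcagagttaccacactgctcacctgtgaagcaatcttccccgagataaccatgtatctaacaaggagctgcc
Ly6g: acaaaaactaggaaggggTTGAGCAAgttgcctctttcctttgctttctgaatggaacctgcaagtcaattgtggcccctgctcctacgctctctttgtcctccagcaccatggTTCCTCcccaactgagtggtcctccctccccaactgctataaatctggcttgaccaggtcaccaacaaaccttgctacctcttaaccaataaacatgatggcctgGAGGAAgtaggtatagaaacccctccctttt
Il1r2: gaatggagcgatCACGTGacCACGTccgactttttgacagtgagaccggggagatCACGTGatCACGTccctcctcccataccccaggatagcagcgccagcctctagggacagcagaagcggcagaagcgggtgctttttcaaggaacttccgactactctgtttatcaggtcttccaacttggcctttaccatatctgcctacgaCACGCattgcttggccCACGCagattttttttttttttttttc

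The motifs were ACGTG and GCGTG, the core letters of the hypoxia response element, TTGCNNAA, a form of the C/EBP site, and GAGGAA, a form of the PU.1 site. Both strands were searched, so the palindrome CACGTG counts as a match to ACGTG on each strand. GAGGAA occurred in 5 of the 9 genes with a start (S100a8, S100a11, Ly6g, Mmp25 and Stfa2l1), against 23.3% of all 32851 promoter windows of this length. TTGCNNAA occurred in 3 of 9 (S100a9, Ly6g and Retnlg), against 9.56% of all windows. Ly6g has 2 RefSeq starts, and the TTGCNNAA match is in the window shown and not in the other (75155079 to 75155328), which holds the same 2 GAGGAA matches; a gene was counted if either window held the motif. ACGTG occurred in 2 of 9 (S100a11 and Il1r2), against 16.6%, and GCGTG in 2 of 9 (Mmp25 and Il1r2), against 28.2%. Il1r2 held 6 matches to ACGTG, of which 4 come from 2 copies of CACGTG read on both strands, and 2 matches to GCGTG. S100a8 held 2 matches to GAGGAA, both on the opposite strand, and S100a9 held 1 match to TTGCNNAA, so that the paired genes shared none of the 4 motifs in these windows. Such a match is a match of letters and not evidence of binding.

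Totals ranged from 23450746 to 28601284 counts per library. Libraries within a group correlated across genes with r between 0.977 and 0.993 on the log2 CPM scale, and counts of all 24 pairs differed by more than sampling noise. The labels do not say that the libraries came from separate animals, and if they did not, p values measure only the spread between the libraries. The targeted genes gave no check of the labels, because counts over a whole gene do not show the targeted exons: Egln1 was at 42.95 to 58.2 CPM in P2KO and 46.1 to 51.6 CPM in P2WT, and Epas1 at 3.41 to 8.28 CPM in P2H2KO and 2.58 to 5.02 CPM in P2H2WT. As far as the targeted genes go, directions below therefore rest on the labels. Of the HIF target list, 4 of 17 tested genes were called higher in P2KO and 8 of 17 in P2H2KO by edgeR (0.0437% and 0.0744% of all genes tested). Neutrophil genes were abundant in each library, but so were genes of red cell precursors, whose 15 listed genes (all found above 0) summed to between 28314 and 57700 CPM.

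S100a9 and S100a8 were among the most abundant transcripts of each library. S100a9 ranked between 1 and 3 by counts and S100a8 between 3 and 9, and together they took 1.38% to 3.37% of all counts. Levels between genes are compared as RPKM, the counts per 1000 bases of exon and per 1000000 counts of the scaled library. On this scale S100a9 had a mean level of 25179 ± 7264 RPKM (SD, n = 16 libraries) and S100a8 of 12846 ± 3751 RPKM. Retnlg, which encodes a resistin-like secreted protein, followed at 1944 RPKM. Wfdc21, which encodes a small secreted protein of the whey acidic protein type, was at 554 RPKM, S100a11 at 482 RPKM, S100a6 at 212 RPKM and Ly6g at 173 RPKM. Mmp25, which encodes a membrane-bound matrix metalloproteinase, was at 31.03 RPKM, Stfa2l1 at 29.5 RPKM and Il1r2 at 22.95 RPKM.

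This order of levels held in every library for the first 7 neighbouring pairs, from S100a9 above S100a8 to Ly6g above Mmp25. The pair of Wfdc21 and S100a11 was the closest of these, with a mean log2 ratio of RPKM of 0.20 ± 0.059 (SD, n = 16). The last 3 genes did not keep an order: Mmp25 was above Stfa2l1 in 11 of 16 libraries and Stfa2l1 above Il1r2 in 10 of 16. Among the 17 S100 genes found, 9 passed the filter, and the 4 described here had the highest RPKM of the family, as the plot of the S100 family shows. S100g and S100z had no count in any library, and S100a10, S100a4, S100a13, S100a1 and S100a16 had lower levels than S100a6.

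**Figure D1:**
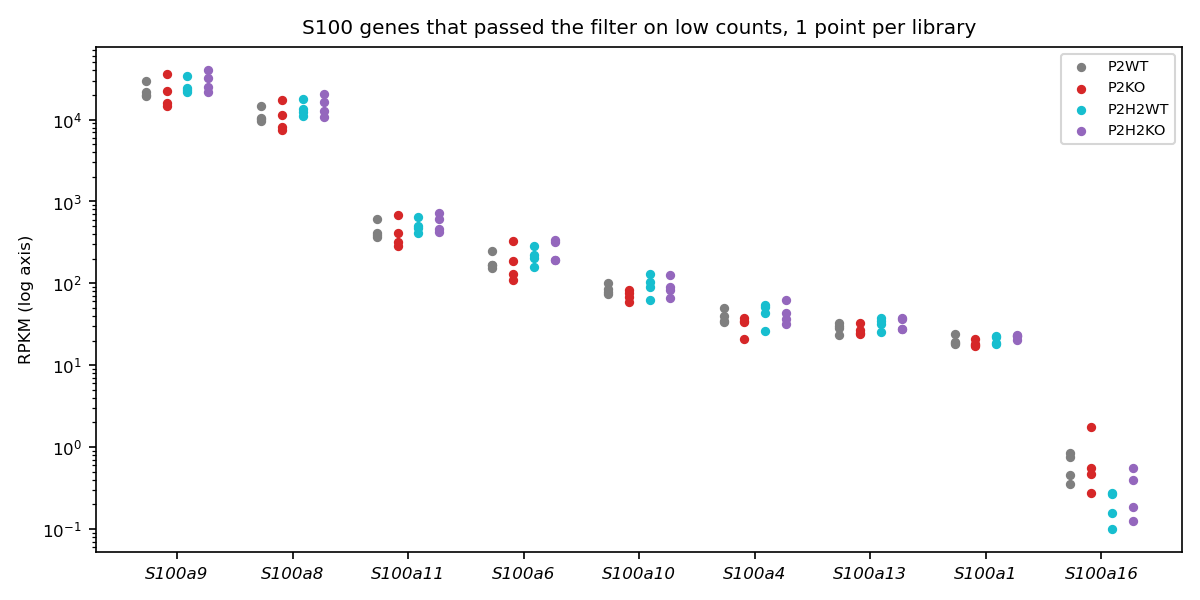
RPKM (log axis) of the 9 S100 genes that passed the filter on low counts, with 1 point per library in 4 groups of 4, ordered by mean level. S100a9 and S100a8 lie above all other members of the family in each library, and the 4 groups overlap for both.

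The comparison of P2KO with P2WT asked whether the 10 genes change in the line in which PHD2 is targeted alone. None of the 10 passed the test: 0 of 10 had an adjusted p under 0.05 in the edgeR quasi-likelihood test, against 0.0437% of the 13734 genes tested, and 0 of 10 had an unadjusted p under 0.05, against 3.49%. DESeq2 likewise called 0 of the 10. Estimates for 9 of the genes lay between -0.063 and 0.053 on the log2 scale, and that of Il1r2 was -0.48. The median over the 10 was -0.0095, with 3 genes above 0 and 7 below, and the median over all genes tested was 0.02.

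S100a8 was at 7979, 5576, 12163 and 5215 CPM in P2KO (replicates 1, 5, 6 and 9) and at 7275, 7104, 6758 and 10202 CPM in P2WT (replicates 3, 4, 7 and 10), where CPM are counts per 1000000 counts of the scaled library. Each group held 1 library well above the other 3, and P2KO held both the highest and the lowest library of the line. The log2 fold change was -0.0057 (SE 0.29, 95% interval -0.65 to 0.64, edgeR adjusted p 0.99999), so that changes up to about 1.56-fold higher in P2KO are within the interval. S100a9 was at 11839, 8392, 18626 and 7717 CPM in P2KO and at 11264, 10468.5, 10082 and 15518 CPM in P2WT. The same libraries were high and low as for S100a8, and the groups overlapped. Its log2 fold change was -0.01 (SE 0.297). S100a6, whose protein binds annexins and other partners in a calcium-dependent way, had 253, 177, 452 and 149 CPM in P2KO and 228, 211, 227 and 337 CPM in P2WT. Its log2 fold change was 0.053 (SE 0.33), and that of S100a11, another annexin partner, was -0.063 (SE 0.28).

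Ly6g, which encodes a GPI-anchored surface antigen of mouse neutrophils, was at 153, 95.7, 253 and 83.8 CPM in P2KO and at 135, 137, 118 and 204 CPM in P2WT. The spread in P2KO again enclosed all P2WT libraries, and the log2 fold change was -0.009 (SE 0.34). Retnlg, Mmp25 and Wfdc21 had log2 fold changes of -0.061 (SE 0.38), 0.035 (SE 0.37) and 0.015 (SE 0.28). Stfa2l1, whose product belongs to the stefin A inhibitors of cysteine proteases, was at 9.74, 4.92, 18.1 and 4.73 CPM in P2KO and at 7.88, 7.14, 5.68 and 17.4 CPM in P2WT. Its log2 fold change of -0.019 had the widest interval of the 10, from -1.14 to 1.10.

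Il1r2 encodes a receptor that binds interleukin 1 without passing on a signal. It was at 34.5, 28.7, 59.6 and 22.1 CPM in P2KO and at 38.9, 36.04, 43.5 and 84.8 CPM in P2WT. The lowest 3 libraries of the line were P2KO libraries and the highest was P2WT replicate 10, but P2KO replicate 6 lay above 3 of the 4 P2WT libraries. The log2 fold change was -0.48 (SE 0.36, 95% interval -1.30 to 0.34, unadjusted p 0.217, edgeR adjusted p 0.99999). Without P2WT replicate 10 it was -0.099, and without P2KO replicate 6 it was -0.83, and Il1r2 was not called in either fit.

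The sign of the other 9 estimates changed with which library was left out. Without P2KO replicate 6 all of them were below 0, from -0.56 for Stfa2l1 to -0.31 for S100a8. Without P2WT replicate 10 all 9 were above 0, from 0.14 for S100a11 to 0.47 for Stfa2l1. None of the 10 was called in any of these fits.

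**Figure D2:**
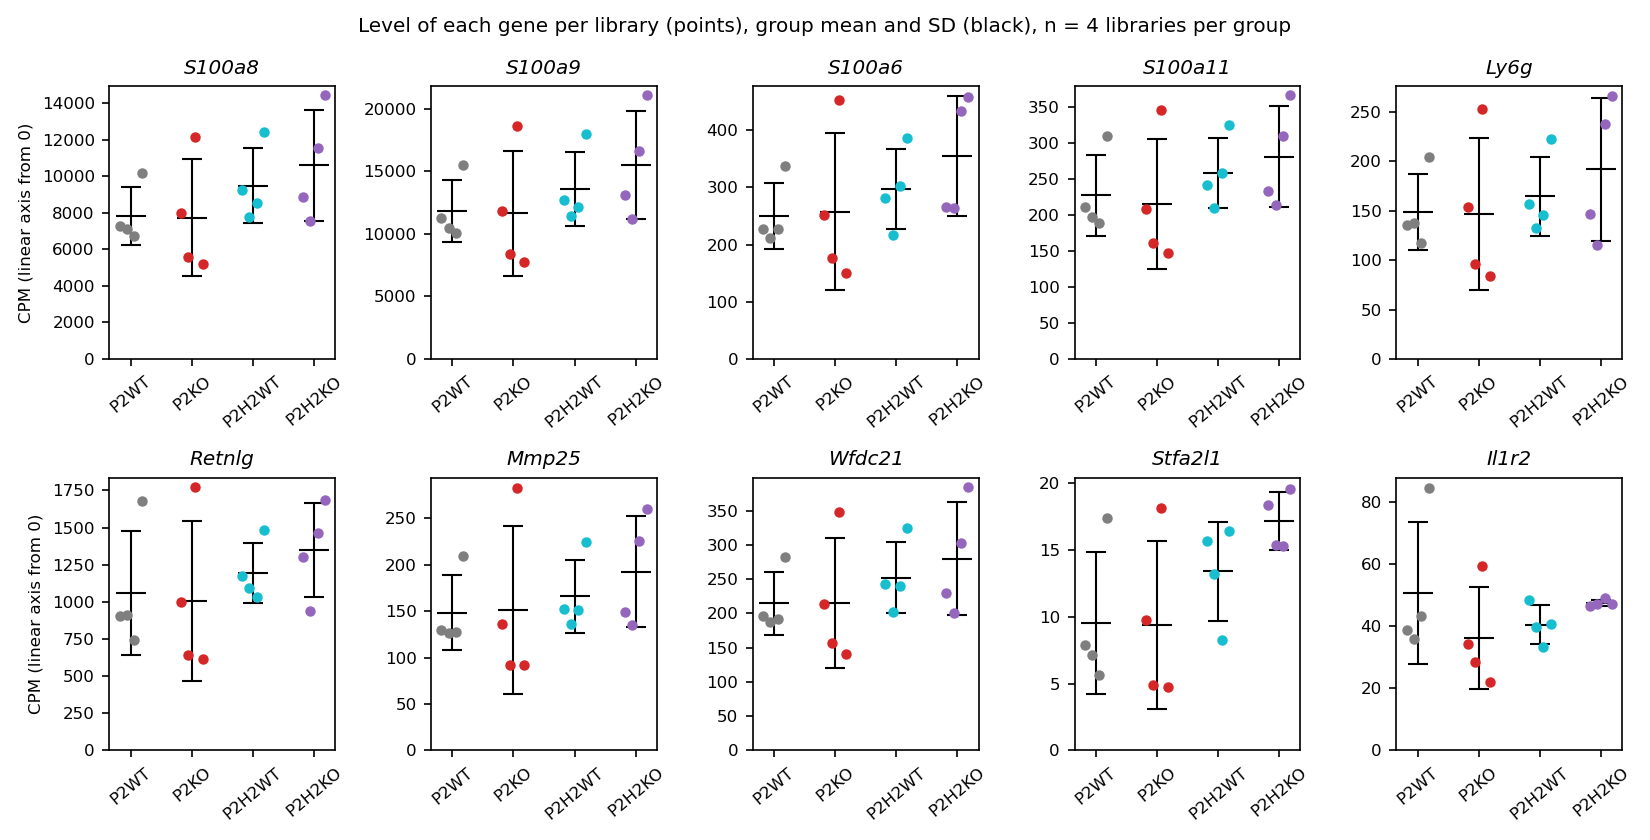
CPM of each of the 10 genes (linear axes from 0) in the 4 groups, with 1 point per library in order of replicate number and the group mean and SD in black (n = 4). In P2KO, replicate 6 lies above the other 3 libraries for all 10 genes, in P2WT replicate 10 does so, and Il1r2 in P2H2KO has the narrowest spread.

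In the line in which HIF2α is targeted as well, all 10 estimates were higher in P2H2KO than in P2H2WT, but none passed the test. With edgeR 0 of 10 had an adjusted p under 0.05, against 0.0744% of the 13435 genes tested, and DESeq2 also called 0. At an unadjusted p under 0.05 there was 1 of 10 (Il1r2), against 2.63% of all genes tested. The estimates ran from 0.14 for S100a11 to 0.37 for Stfa2l1, with a median of 0.22 against 0.0011 over all genes tested. As the genes moved together from library to library, they are not 10 separate measurements.

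S100a8 was at 8870, 7542, 11528 and 14449.6 CPM in P2H2KO (replicates 11, 12, 15 and 17) and at 9257, 7787, 8517 and 12413 CPM in P2H2WT (replicates 13, 14, 16 and 18). The highest and the lowest library were both P2H2KO libraries. The log2 fold change was 0.17 (SE 0.23, 95% interval -0.34 to 0.69), and that of S100a9 was 0.21 (SE 0.23). Ly6g was at 147, 115, 238 and 266 CPM in P2H2KO and at 157, 133, 146 and 222 CPM in P2H2WT. Replicates 15 and 17 lay above all P2H2WT libraries, and replicate 12 below all of them. The log2 fold change of Ly6g was 0.24 (SE 0.27). S100a6 and S100a11 had estimates of 0.27 (SE 0.23) and 0.14 (SE 0.19), and Retnlg, Mmp25 and Wfdc21 of 0.19 (SE 0.19), 0.23 (SE 0.23) and 0.16 (SE 0.21). Without P2H2KO replicate 17 the estimates of S100a8, S100a11 and Wfdc21 fell just below 0, to -0.015, -0.021 and -0.033, and the other 7 stayed above 0.

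The genes with the smallest p values in this line were those least tied to the rest. Il1r2 was at 46.7, 47.1, 49.04 and 47.3 CPM in P2H2KO and at 48.6, 39.7, 33.5 and 40.7 CPM in P2H2WT. The P2H2KO libraries lay close together, with an SD of 1.05 CPM against 6.19 to 22.9 CPM in the other 3 groups, and all but 1 of the P2H2WT libraries lay below them. The log2 fold change of Il1r2 was 0.24 (SE 0.10, 95% interval 0.0052 to 0.47, unadjusted p 0.0461), which did not pass over all genes (edgeR adjusted p 0.9999). Stfa2l1 was at 18.4, 15.4, 15.3 and 19.6 CPM in P2H2KO and at 15.7, 13.2, 8.25 and 16.4 CPM in P2H2WT. Of the P2H2WT values 2 lay among those of P2H2KO. Its log2 fold change was 0.37 (SE 0.20, unadjusted p 0.0963, edgeR adjusted p 0.9999).

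The difference between the effects in the lines was tested over all 16 libraries, as the P2 effect minus the P2H2 effect. It was below 0 for all 10 genes, from -0.73 for Il1r2 to -0.16 for Wfdc21, and the median was -0.23 against 0.0012 over all genes tested. With edgeR 0 of 10 passed, as did 0% of the 14080 genes tested, and 0 of 10 had an unadjusted p under 0.05, against 1.51% of all genes. DESeq2 called 0 of the 10. For S100a8 the difference was -0.19 (SE 0.39, 95% interval -1.01 to 0.63). For Il1r2, which was lower in P2KO and higher in P2H2KO than in their controls, it was -0.73 (SE 0.40, 95% interval -1.59 to 0.13, unadjusted p 0.0890, edgeR adjusted p 0.999). Without P2KO replicate 6 it was -1.08 and without P2WT replicate 10 it was -0.36.

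**Figure D3:**
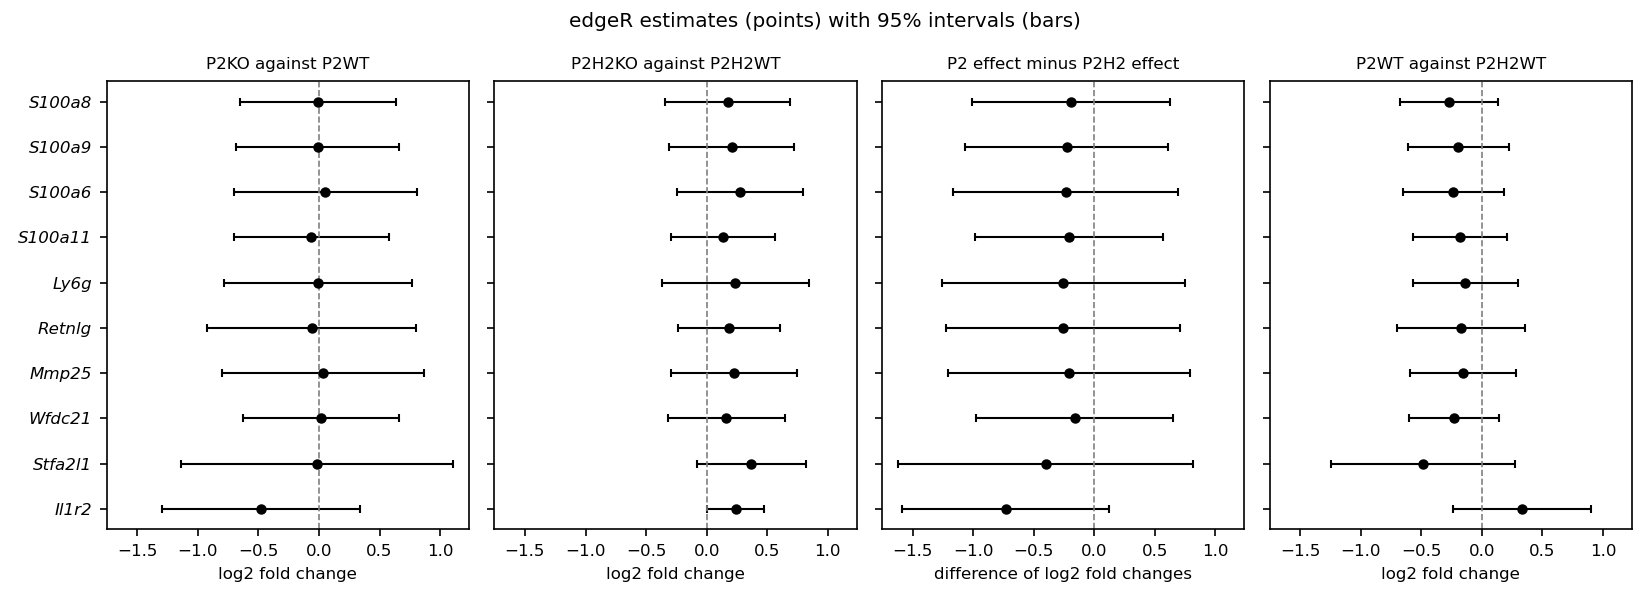
Log2 fold changes of the 10 genes from edgeR (points) with 95% intervals (bars) in 4 comparisons; the third panel shows the difference of the log2 fold changes. Of the 40 intervals, only that of Il1r2 in P2H2KO against P2H2WT, 0.0052 to 0.47, does not reach 0.

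Between the control groups, 9 of the 10 estimates were lower in P2WT than in P2H2WT and Il1r2 was higher (0.33, SE 0.26). Line, deposited table and any difference in handling cannot be told apart in this comparison. With edgeR 0 of 10 passed, against 1.22% of the 13593 genes tested, and 0 of 10 had an unadjusted p under 0.05, against 11.4%. DESeq2 called 0. S100a8 had a log2 difference of -0.27 (SE 0.18, edgeR adjusted p 0.622) and Stfa2l1 one of -0.48 (SE 0.34, edgeR adjusted p 0.644). The median of the 10 was -0.19 against -0.012 over all genes. Without P2WT replicate 10, which held the highest Il1r2 level of all libraries, the Il1r2 difference was -0.046 in place of 0.33.

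The model was set aside in exact permutation tests, two-sided, of log2(CPM + 1). Over the 30 tests of 10 genes in 3 comparisons (4 libraries against 4, smallest possible p 0.0286), every Benjamini-Hochberg adjusted exact p was 0.886. The groups overlapped in all 30. Groups that did not overlap were found for 2.32%, 2.01% and 7.71% of 14080 genes, in P2KO against P2WT, P2H2KO against P2H2WT and P2WT against P2H2WT. With shares this small, overlap in all 30 does not set the 10 genes apart.

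The 10 genes varied widely between libraries of the same group. The SD of log2 CPM within groups was between 0.39 for S100a11 and 0.62 for Stfa2l1, against a median of 0.14 over the 8296 genes at least as abundant as Stfa2l1. This placed the 10 genes between percentiles 96.6 and 99.7 of that set. Among all 14080 genes that passed the filter, whose median SD was 0.20, they lay between percentiles 82.0 (S100a11) and 95.6 (Stfa2l1). The highest level of a gene was 2.49 (S100a11) to 4.14 (Stfa2l1) times its lowest. All 10 were lowest in P2KO replicate 9. The highest library was P2H2KO replicate 17 for 7 genes, P2KO replicate 6 for Retnlg and Mmp25, and P2WT replicate 10 for Il1r2.

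The libraries moved as a block. In P2KO replicate 6, P2WT replicate 10 and P2H2KO replicates 15 and 17 all 10 genes were above their own mean of the 16 libraries, and in P2H2WT replicates 13 and 18 9 were. In P2KO replicates 1, 5 and 9 and in P2WT replicates 3 and 4 all 10 were below it. High libraries thus occurred in all 4 groups.

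**Figure D4:**
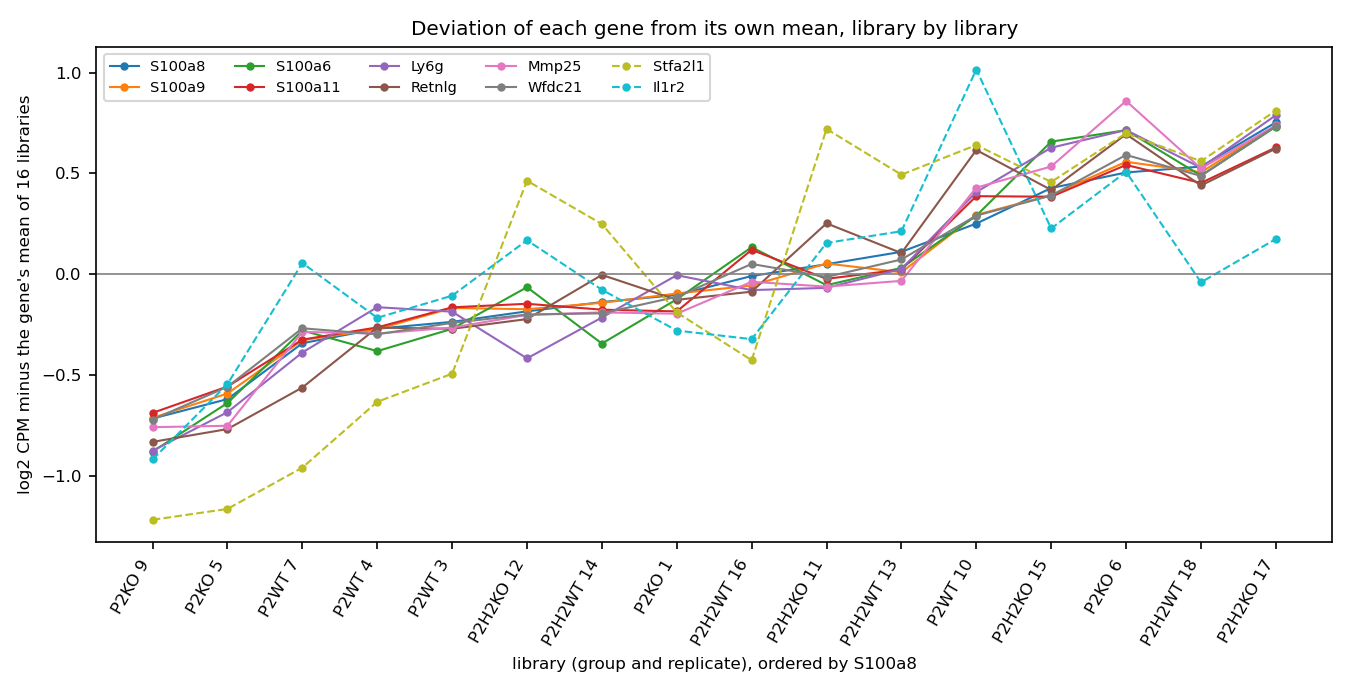
Log2 CPM of each of the 10 genes minus its own mean of the 16 libraries, with libraries ordered by S100a8 from P2KO replicate 9 to P2H2KO replicate 17. Solid lines (8 genes) run close together, and the dashed lines of Stfa2l1 and Il1r2 leave them in several libraries.

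Of the 45 pairs of the 10 genes, the 28 without Il1r2 and Stfa2l1 had Pearson r of log2 CPM between 0.917 and 0.995 over the 16 libraries. The 9 pairs with Il1r2 had r between 0.671 and 0.786, and the other 8 pairs with Stfa2l1 between 0.784 and 0.914. Over deviations from the group means, which leave out differences between groups, the 28 pairs had r between 0.900 and 0.997. All these levels come from the same libraries and are shares of the same totals.

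S100a8 was set against 22 other measures over the 16 libraries, with 100000 permutations each and Benjamini-Hochberg adjustment over the 22. With S100a9 the Pearson r was 0.995 and Spearman's rho 0.991 (permutation p 1e-05 for each, the smallest possible; adjusted 2.44e-05 and 2.2e-05). Without P2H2KO replicate 17 and P2KO replicate 9, the libraries farthest from the median of S100a8, r was 0.992, and within the lines it was 0.999 (P2) and 0.994 (P2H2). The relation to Wfdc21 was as close, with r 0.993 and Spearman 0.991 (permutation p 1e-05 each, adjusted 2.44e-05 and 2.2e-05; r 0.988 without the farthest libraries, 0.995 and 0.993 within the lines).

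For Stfa2l1 the relation to S100a8 was close in the P2 line (r 0.976) and looser in the P2H2 line (r 0.484); the difference was not tested. Pooled, r was 0.857 and Spearman 0.885 (permutation p 2e-05 and 1e-05, adjusted 4.4e-05 and 2.2e-05), and r was 0.810 without the farthest libraries. For Il1r2 the values were 0.871 in the P2 line and 0.272 in the P2H2 line, where its level hardly varied in P2H2KO. Pooled, r was 0.671 and Spearman 0.703 (permutation p 0.00422 and 0.00333, adjusted 0.00774 and 0.00611), and r was 0.606 without the farthest libraries.

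The count ratio of S100a8 to S100a9 showed how closely the pair was held. It was between 0.646 and 0.727 in all 16 libraries, although the level of S100a8 differed 2.77-fold between the lowest and the highest. Group means were 0.667 ± 0.010 in P2KO, 0.663 ± 0.014 in P2WT, 0.682 ± 0.0097 in P2H2KO and 0.699 ± 0.020 in P2H2WT (SD, n = 4). The log2 ratio did not differ past the threshold between genotypes in either line (exact permutation p 0.686 in the P2 line and 0.171 in the P2H2 line; adjusted over 3 tests 0.686 and 0.257). It was lower in each P2WT than in each P2H2WT library, by -0.076, with an exact permutation p of 0.0286, the smallest possible, and an adjusted p of 0.0857.

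Genes of other neutrophil lists moved with S100a8 to differing degrees. Secondary granules are filled at the same marrow stage. Whether each of the 14 genes listed for them (Lta4h and Ltb4r1 among them) is made then was not examined. The mean log2 CPM of these 14 genes had r 0.991 and Spearman 0.974 (permutation p 1e-05 each, adjusted 2.44e-05 and 2.2e-05). Its r was 0.985 without the farthest libraries, 0.989 and 0.993 within the lines. The mean log2 CPM of 26 other mature neutrophil genes had r 0.967 and Spearman 0.962 (permutation p 1e-05 each, adjusted 2.44e-05 and 2.2e-05). Its r was 0.963 without the farthest libraries, 0.982 and 0.974 within the lines. Primary granules are made at the earlier promyelocyte stage. The 10 genes listed for them include Srgn, Ctsc, Cst7, Nkg7 and Gstm1, and whether each is confined to that stage was not examined. The mean of this list showed no such relation, with r 0.123 and Spearman 0.112 (permutation p 0.647 and 0.680, adjusted to the same values). Its r was -0.293 without the farthest libraries, -0.151 and 0.152 within the lines. These values hold for the mean of the list and not for each gene. The HIF target list had no relation past the threshold over the pooled libraries, with r 0.242 and Spearman 0.362 (permutation p 0.363 and 0.168, adjusted 0.420 and 0.231). Its r was 0.192 without the farthest libraries, 0.083 and 0.296 within the lines. The mean log2 CPM of this list was 4.97 to 5.23 in P2KO and 4.39 to 4.49 in P2WT. It was 5.16 to 5.45 in P2H2KO and 4.33 to 4.63 in P2H2WT. The r values mix this difference between genotypes with the relation within groups, which was not examined.

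Cell cycle and red cell genes were lower where S100a8 was higher. The 16 cell cycle genes had r -0.806 and Spearman -0.785 with S100a8 (permutation p 0.00016 and 0.00063, adjusted 0.00032 and 0.00126; r -0.744 without the farthest libraries, -0.792 and -0.769 within the lines). The 15 red cell genes had r -0.610 and Spearman -0.538 (permutation p 0.0123 and 0.0343, adjusted 0.0208 and 0.0580; r -0.615 without the farthest libraries, -0.754 and -0.643 within the lines). The 12 B cell genes had r -0.553 and Spearman -0.494 (permutation p 0.0249 and 0.0522, adjusted 0.0391 and 0.0820; r -0.467 without the farthest libraries, -0.452 and -0.619 within the lines).

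The lists of other cell types had no relation to S100a8 past the threshold over the 16 libraries, and their signs differed. The T and NK cell list had r -0.288 and Spearman -0.297 (permutation p 0.279 and 0.264, adjusted 0.341 and 0.323; r -0.493 without the farthest libraries), with r -0.163 in the P2 line and -0.920 in the P2H2 line, a difference that was not tested. The endothelial and stroma list had r -0.446 and Spearman -0.306 (permutation p 0.0849 and 0.250, adjusted 0.117 and 0.323; r -0.212 without the farthest libraries, -0.348 and 0.499 within the lines). The megakaryocyte and platelet list had r -0.314 and Spearman -0.209 (permutation p 0.237 and 0.437, adjusted 0.307 and 0.483; r 0.021 without the farthest libraries, -0.055 and -0.266 within the lines). The sign was positive for the monocyte and macrophage list, with r 0.225 and Spearman 0.209 (permutation p 0.404 and 0.439, adjusted 0.444 and 0.483; r 0.103 without the farthest libraries, 0.081 and 0.293 within the lines). It was positive as well for the eosinophil, basophil and mast cell list, with r 0.179 and Spearman 0.188 (permutation p 0.505 and 0.484, adjusted 0.529 and 0.507; r 0.351 without the farthest libraries, -0.047 and -0.268 within the lines).

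P2KO replicate 6, in which all 10 genes were high, had the lowest red cell sum of its line at 29136 CPM, and P2H2KO replicate 15 the lowest of all at 28314 CPM. P2WT replicate 7, in turn, had a low red cell sum of 35869 CPM and low levels of S100a8. The part of red cell content in the spread of the 10 genes was not tested, and in bulk libraries fewer cells of a type and less RNA per cell cannot be told apart.

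With the mean log2 CPM of the red cell list as a covariate, the SE of S100a8 in P2KO against P2WT fell from 0.29 to 0.18 and its estimate was 0.028. In P2H2KO against P2H2WT the estimate of S100a8 moved from 0.17 to 0.054, that of S100a6 from 0.27 to 0.093 and that of Ly6g from 0.24 to 0.039. The estimate of Il1r2 stayed at 0.24 and that of Stfa2l1 moved from 0.37 to 0.40. In P2WT against P2H2WT the estimates of 9 genes moved away from 0: S100a8 from -0.27 to -0.35 (SE 0.16), S100a6 from -0.24 to -0.36 (SE 0.15), Ly6g from -0.14 to -0.21 (SE 0.21) and Mmp25 from -0.16 to -0.26 (SE 0.20) among them. That of Il1r2 moved from 0.33 to 0.23 (SE 0.33). None of the 10 was called with this covariate in any comparison.

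**Figure D5:**
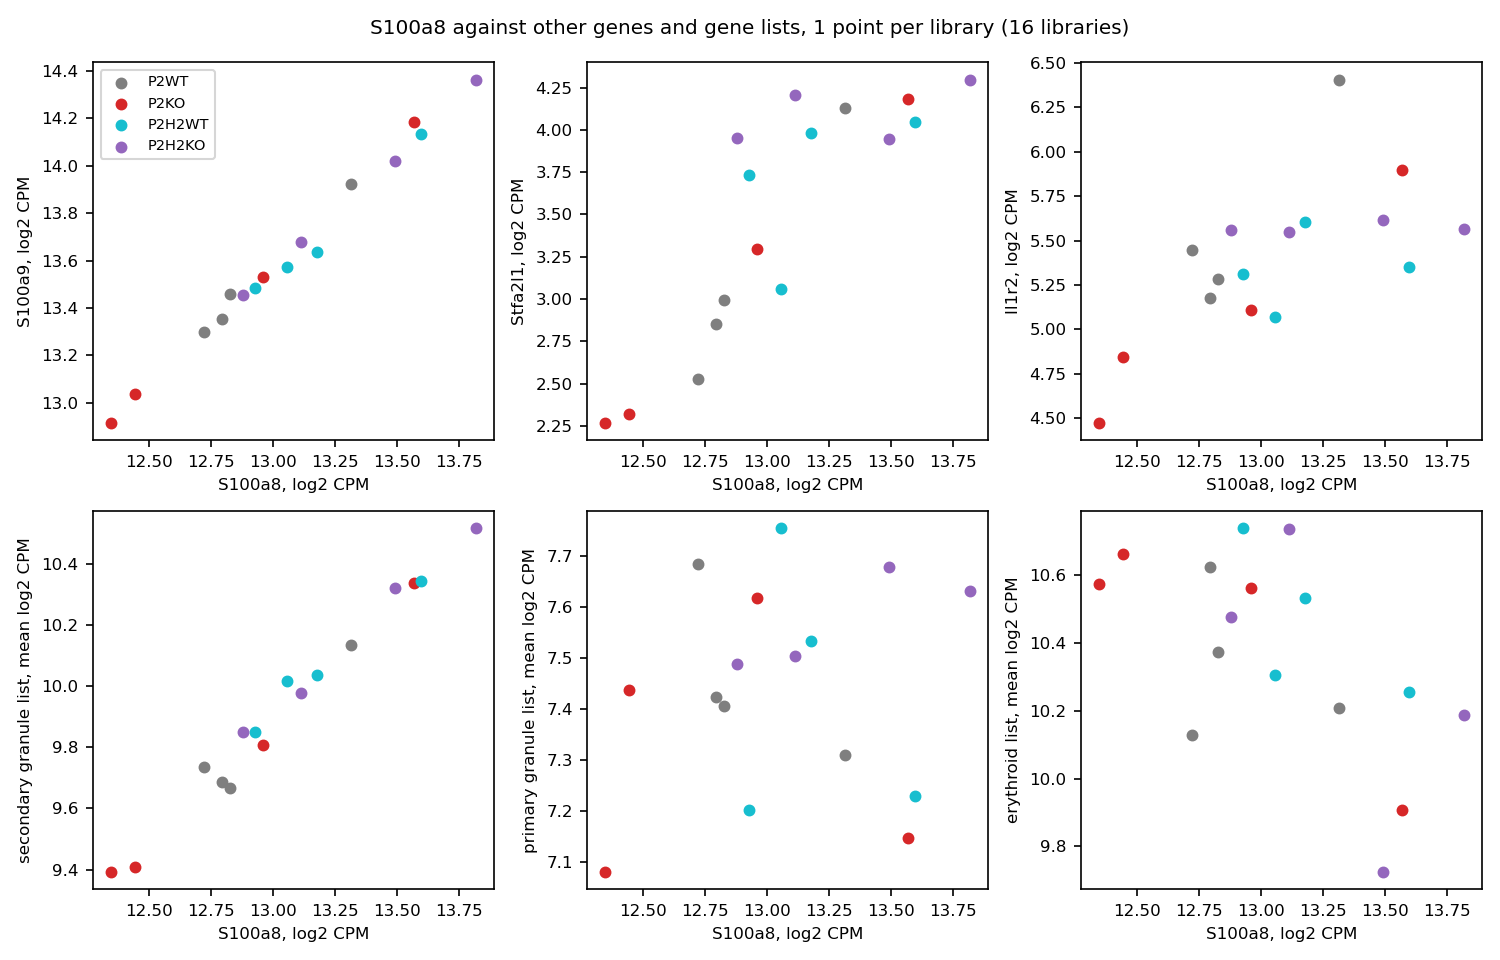
Log2 CPM of S100a8 (x axes) against S100a9, Stfa2l1, Il1r2 and the mean log2 CPM of 3 gene lists (y axes), with 1 point per library in 4 groups of 4. S100a9 (r 0.995) and the secondary granule list (r 0.991) lie along a line, the primary granule list (r 0.123) does not, and the erythroid list of red cell genes falls as S100a8 rises (r -0.610).

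The genes whose log2 CPM over the 16 libraries was most like that of each of the 10 were sought among 9567 genes with a mean of at least 5 CPM. For S100a8 they were S100a9 (r 0.995), Wfdc21 (r 0.993) and the secondary granule gene Lcn2 (r 0.993), and for S100a9 they were S100a8, Wfdc21 and Lcn2. For Wfdc21 they were Lcn2, Mettl9 and S100a8, and for S100a11 R3hdm4, Wfdc21 and Lcn2. Mmp25 was most like Ltf (r 0.996), Cd177 and Anxa1, of the secondary granule list. For Ly6g they were Rps6ka2 (r 0.985), Ceacam10 and Mmp9, for Retnlg the formyl peptide receptor gene Fpr1 (r 0.985), Max and Por, and for S100a6 Ostf1 (r 0.992), Pgd and Msrb1. Stfa2l1 was most like Cd101 (r 0.938), H2-Q10 and Vnn3, and Il1r2 most like Rdh12 (r 0.935), Antxr2 and Clec4e. For Il1r2, S100a8 stood at rank 447 of this order. Ranking by Spearman kept 8 of the 30 genes, and by deviations from group means 19.

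The families of the 10 genes were examined as fixed lists. Their counts at an unadjusted p under 0.05 stand against 3.49% of all genes tested in the P2 line and 2.63% in the P2H2 line, and their called genes against 0.0437% and 0.0744%; no list was tested as a set. Of the S100 family 0 of 9 tested genes were called in either line (edgeR adjusted p), with medians of -0.063 and 0.14, and 0 had an unadjusted p under 0.05. Over the 16 libraries, as a description, S100a13 (r 0.805), S100a4 (r 0.547), S100a10 (r 0.457) and S100a1 (r 0.321) followed S100a8 less closely than the 3 S100 genes above, and S100a16 had r -0.211. Of 14 partners and receptors of S100 proteins 0 were called in either line, with medians of 0.033 and 0.066 and with 2 and 1 genes at an unadjusted p under 0.05. The smallest p values were those of Cd14, a co-receptor of the Toll-like receptor TLR4, at -0.64 (SE 0.18, unadjusted p 0.00682, edgeR adjusted p 0.99999) in the P2 line, and of Ager, which encodes the receptor RAGE, at 0.62 (SE 0.21, unadjusted p 0.0164, edgeR adjusted p 0.9999) in the P2H2 line.

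The stefin family had the largest medians of the families, 0.62 in the P2 line and 0.53 in the P2H2 line over 6 tested genes, without a called gene in either and with 1 and 3 of the 6 at an unadjusted p under 0.05 (3.49% and 2.63% of all genes tested). Stfa1 had log2 fold changes of 0.84 (SE 0.32, unadjusted p 0.0283) and 0.85 (SE 0.21, unadjusted p 0.00277), with edgeR adjusted p values of 0.99999 and 0.779. Stfa2 had 0.71 (SE 0.42) and 0.95 (SE 0.28, unadjusted p 0.00756), and Stfa3 0.77 (SE 0.43) in the P2 line. The estimates of Stfa2l1 itself were -0.019 and 0.37. The transcript of Stfa2l1 is 81.4% identical to that of Stfa3 over 414 bases and 77.8% identical to that of Gm5483 over 418 bases, and how reads shared by such copies were counted is not given in the sources used here.

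Of the 12 genes of the interleukin 1 system, 0 were called in either line, with medians of -0.042 and -0.012 and with 1 and 2 genes at an unadjusted p under 0.05. Il18, which encodes a cytokine of the family, had -0.31 (SE 0.14, unadjusted p 0.0455) in the P2 line and -0.72 (SE 0.13, unadjusted p 0.000432, edgeR adjusted p 0.320) in the P2H2 line. Of the Ly6 surface proteins 0 of 10 were called in either line, with medians of -0.0046 and -0.11 and 0 genes at an unadjusted p under 0.05. The transcript of Ly6g is 81.6% identical to that of Ly6a and 78.8% to that of Ly6c2. Of the matrix metalloproteinases and their inhibitors 0 of 10 in the P2 line and 0 of 9 in the P2H2 line were called, with medians of 0.17 and 0.051 and with 0 and 1 genes at an unadjusted p under 0.05. Between the control groups Timp3 (2.20, SE 0.33, edgeR adjusted p 0.0133) and Mmp2 (1.60, SE 0.32, edgeR adjusted p 0.0470) were higher in P2WT, beside 5 of 12 endothelial and stroma genes called higher there (1.22% of all genes tested were called in either direction), and Mmp25 was not (-0.16, SE 0.20). That the content of such cells has a part in these calls was not tested.

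Other neutrophil lists held no called gene either. Of 26 other mature neutrophil genes 0 were called in either line, with medians of -0.0017 and 0.14; 1 and 2 of them had an unadjusted p under 0.05. Of 14 secondary granule genes 0 were called and 0 had an unadjusted p under 0.05 in either line, with medians of -0.01 and 0.13. The same counts held for 10 primary granule genes, with medians of -0.11 and 0.15. In P2H2KO 26 of 26 mature, 14 of 14 secondary and 9 of 10 primary granule genes had estimates above 0, beside 6791 of all 13435 genes tested. In P2KO 13 of 26, 5 of 14 and 0 of 10 did, beside 7936 of 13734. Higher estimates in P2H2KO were thus not particular to the 10 genes. The HIF target list had 4 of 17 tested genes called higher in P2KO and 8 of 17 in P2H2KO by edgeR (0.0437% and 0.0744% of all genes tested). Its medians were 0.57 and 0.70, in the same fits in which none of the 10 genes was called. The precision differed, however. In P2KO against P2WT the called genes Ankrd37, Aldoc and Pfkl had 2.73 (SE 0.18), 1.52 (SE 0.11) and 0.75 (SE 0.061). The SE of the 10 genes there ran from 0.28 for S100a11 to 0.50 for Stfa2l1. A change as large as that of Pfkl would thus be harder to call in them.

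For S100a11 the transcript of the pseudogene Gm12854 is 98.99% identical over 297 bases, and Gm12854 had 15 to 42 counts against 3862 to 8789 for S100a11. The search kept only the longest matches of each gene, and matches without a symbol in the count tables were left out. Within these limits no similar transcript was listed for S100a8, S100a6, Wfdc21 and Il1r2. For S100a9 the only transcript listed had no counts.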

How the data were processed

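The authors deposited 2 tables of raw counts, 1 per line, with 8 libraries each, per the file headers. The submitters' processing notes name HTSeq and mm10. Which aligner and annotation were used, and whether strand was counted, is not given in the sources used here. Symbols matched 49326 of 49585 identifiers, and coordinates came from GENCODE M21 (GRCm38). The 10 genes, the gene lists and the tests were chosen with earlier results of these data known. Besides the 10, up to 3 genes per list with the smallest unadjusted p in a comparison were named, and the 3 genes most like each of the 10 (predicted genes left out). Other similar transcripts and the targeted genes were chosen after their values were seen. Outside this rule, genes of the S100 family were named for their levels and r, and some genes of the granule lists to describe those lists.

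From the deposited counts, edgeR 4.0.16 (filterByExpr, TMM, estimateDisp, robust glmQLFit, glmQLFTest) tested each line on its own 8 libraries, the control groups on theirs, and the difference of effects on all 16. Tests were two-sided, with Benjamini-Hochberg adjustment over all genes tested and a threshold of 0.05. CPM and RPKM (union of exons) used TMM-scaled totals of the 16 libraries, and log2 CPM used a prior count of 2. Procedures were tested on simulated counts. Exact and permutation tests used R 4.3.3, numpy 2.4.6 and scipy 1.17.1, and similar transcripts were found with blastn 2.17.0. Promoter sequences came from RefSeq (GRCm38.p6). Alternatives were RLE and upper-quartile factors, other filters, DESeq2 1.42.0, covariates for the title suffix (m or f) and for the erythroid list, a fit of all libraries, and leaving out each library.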

Additional observations from a re-analysis of the deposited data

Results flagged for a closer look

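In 5 of the 40 sets of 4 libraries examined (10 genes in 4 groups), 1 library stood apart from the other 3 by a gap beyond the 95% critical value of Dixon's test for 4 values, which chance gives in about 1 of 20 such sets. All 5 were the same library, P2WT replicate 10, as the highest of its group, and the 10 genes are not independent of each other. It had 10202 CPM of S100a8, 336.7 CPM of S100a6, 209.9 CPM of Mmp25, 283 CPM of Wfdc21 and 84.8 CPM of Il1r2, with gaps of 0.850, 0.866, 0.968, 0.921 and 0.846 of the range.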

How the results depend on the processing

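None of the 10 genes was called in any comparison under the 8 other settings or in the fits that left out 1 library, and directions held except as follows (log2 scale; the cause was not tested). In P2KO against P2WT, Wfdc21 was -0.0014 with upper-quartile factors; the title suffix as a covariate gave S100a6 -0.012, Mmp25 -0.0067 and Wfdc21 -0.030; the erythroid covariate gave S100a8 0.028, S100a9 0.024, Ly6g 0.0027 and Stfa2l1 0.0094. In the difference of effects, the erythroid covariate gave S100a6 0.0019, Mmp25 0.012 and Wfdc21 0.031.

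Leaving out each library gave ranges that crossed 0. In P2KO against P2WT they were -0.31 to 0.16 for S100a8, -0.34 to 0.16 for S100a9, -0.37 to 0.24 for S100a6, -0.39 to 0.14 for S100a11, -0.41 to 0.20 for Ly6g, -0.48 to 0.27 for Retnlg, -0.47 to 0.26 for Mmp25, -0.32 to 0.19 for Wfdc21 and -0.56 to 0.47 for Stfa2l1. In P2H2KO against P2H2WT they were -0.015 to 0.33 for S100a8, -0.021 to 0.26 for S100a11 and -0.033 to 0.31 for Wfdc21. In the difference of effects they were -0.68 to 0.062 for Retnlg, -0.71 to 0.015 for Mmp25, -0.50 to 0.025 for Wfdc21 and -0.94 to 0.077 for Stfa2l1, and between control groups -0.34 to 0.033 for Ly6g, -0.38 to 0.014 for Mmp25 and -0.046 to 0.46 for Il1r2. Without 1 library its group keeps 3.

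Counts of all genes called moved more. P2KO against P2WT gave 23 with DESeq2, 12 with the erythroid covariate and 10 in the fit of all 16 libraries, in place of 6. P2H2KO against P2H2WT gave 42 with DESeq2 and 18 with the erythroid covariate, in place of 10, and 6 (without P2H2WT replicate 13) to 9 without 1 library. P2WT against P2H2WT gave 87 with at least 10 counts in every library, 419 with DESeq2, 580 with the erythroid covariate and 32 in the fit of all 16, in place of 166, and 76 to 167 without 1 library, among them 76, 77, 96, 96 and 99 without P2WT replicates 10, 3, 4 and 7 and P2H2WT replicate 16. With the longest transcript as gene length, mean RPKM was 17901 for S100a8, 370.4 for S100a6 and 30.9 for Il1r2.

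No paired analysis was possible because no replicate number is shared between groups. With 4 libraries per group and the spread given above, none of these genes was called, at counts of 124 or more per library. That does not show that a gene was unchanged: the intervals give the changes that the data allow. All of them include 0 but that of Il1r2 in P2H2KO against P2H2WT (0.0052 to 0.47).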
